A study of Rattus norvegicus with 59 samples.

Results

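The regions described here had the least H3K27me3 signal per kb in cardiomyocyte nuclei of sham-operated and control rats. They are 971 of the 9703 bins into which the study divided 20 chromosomes for this mark, and they cover 317 of 2510 Mb. They were chosen by their density, the mean log2 RPM (reads scaled to library size) of the sham-operated and control groups minus the log2 of the bin length in kb. Bins at or below the 10th percentile of all bins, -2.34 log2 RPM per kb, were kept. The study took male Sprague Dawley rats, sorted left ventricular nuclei for PCM1, a protein of the nuclear surface in cardiomyocytes, and followed H3K27me3 and H3K9me2 by chromatin immunoprecipitation of nucleosomes released with micrococcal nuclease. In banded rats of about 170 g, a suture was tightened around the ascending aorta for 6 weeks, and only hypertrophied hearts that were not failing were kept. Sham-operated rats of the same start weight had the surgery with the suture left loose. Exercise rats of about 280 g ran intervals on an inclined treadmill for 6 weeks, and control rats of the same start weight stayed out of that programme. The labels list 4 samples of each mark in each of these 4 groups, but each bin has 1 value per group. Differences between groups therefore have no replicate error, no test was made, and an SD below is a spread over bins. Gene names could not be paired with the bins or with the RNA tables (0 of 22938 gene IDs matched), so cardiomyocyte markers were not checked and the regions are given by position.

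H3K27me3 is laid down by the Polycomb repressive complex PRC2 and marks facultative heterochromatin, in which genes of other lineages and developmental stages are held silent. Outside such domains the mark is thin, and it is typically sparse over actively transcribed gene bodies. H3K9me2, laid down largely by G9a and GLP, forms broad domains of repressed chromatin, much of it at the nuclear periphery. The study's title concerns these H3K9 methyltransferases in cardiac hypertrophy.

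Both marks were deposited on a scale that fixes the overall distribution. After sorting, the 4 columns of H3K27me3 differed by more than 0.01 log2 at only 17 of 9703 ranks, and those of H3K9me2 at 13 of 6171. A loss or gain of the mark over the whole genome would thus not show, and a set of bins can only stand higher in 1 group if other bins stand lower. Densities were not divided by an input, and the depth behind them is unknown.

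The densities of the chosen bins had a median of -2.49 log2 RPM per kb, against -1.45 in the remaining 8732 bins. These values set the choice and are given as description. Summed over their length, the regions held 0.178 RPM per kb in banded and 0.178 in sham rats, and 0.141 in exercise and 0.148 in control rats. The remaining bins held 0.415, 0.415, 0.421 and 0.420 RPM per kb in the same order. The regions thus took 5.83% of the summed deposited RPM in banded, 5.85% in sham, 4.63% in exercise and 4.85% in control rats, on 12.6% of the covered length. Their share of the reads before the authors' scaling is unknown. The lower edge reached -4.69, while the middle of the set was narrow, with quartiles at -2.64 and -2.40.

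The sparsest region of all was a 600 kb bin on chromosome 4 (46935000 to 47535002) at -4.69 log2 RPM per kb. Its log2 RPM was 4.52 in banded, 4.47 in sham, 4.73 in exercise and 4.61 in control rats, so the 4 groups lay within 0.3 of each other. Next came 450 kb on chromosome 10 (66135000 to 66585002), with 4.29 in banded, 4.30 in sham, 4.05 in exercise and 4.06 in control rats. Both are longer than the median region, 190 kb. Then followed 700 kb on chromosome 6 (27475000 to 28175002), with 5.11, 5.03, 5.16 and 5.07 in the same order. A 300 kb bin of the same chromosome (59395000 to 59695002) had 4.00 in banded, 4.03 in sham, 3.87 in exercise and 3.80 in control rats. The fifth, 750 kb on chromosome 2 (29335000 to 30085002), had 5.39, 5.61, 5.22 and 5.30. All of these bins were low in every group, and none of them differed by more than 0.5 between banded and sham or between exercise and control rats. At the other edge, the threshold cut through a dense field of bins. The last regions inside it, on chromosome 15 (24995000 to 25075002), chromosome 5 (51425000 to 51515002) and chromosome 15 again (10695000 to 10765002), had densities of -2.337, -2.338 and -2.338. The first bins outside it, on chromosome 1 (143015000 to 143205002), chromosome 4 (144285000 to 144375002) and chromosome 1 again (44165000 to 44365002), had -2.337, -2.336 and -2.336. The set is therefore the low end of a continuous range and not a class with a border of its own.

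The banded and exercise columns took no part in the choice, and most of the regions were sparse there as well. By the banded column alone, 784 of the 971 (80.7%) fell in the lowest 10% of all bins and 963 (99.2%) in the lowest 20%. By the exercise column alone the counts were 726 (74.8%) and 947 (97.5%). Both columns placed 617 regions (63.5%) in their lowest 10%. The least stable region by the banded column lay on chromosome 8 (36235000 to 36525002), at percentile 32.5 of that column. By the exercise column it was a bin on chromosome 14 (65175000 to 65265002), at percentile 29.2. No region reached the middle of the distribution in either group.

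The sparse regions were somewhat longer than other bins, but bin length entered the rule that chose them, so lengths are a description. Their median length was 190 kb (quartiles 110 and 360 kb), against 160 kb (90 and 300 kb) in the remaining bins. Their mean was 327 kb against 251 kb. Chosen by the control column alone, the sparsest 10% had a median of 230 kb, and by the sham column alone 160 kb. The next 10% of bins by density had a median of 170 kb, and the densest 10% 130 kb. The lengths follow the borders set by the authors' segmentation, which joined neighbouring stretches of similar signal. Only 56 regions (5.77%) reached 1000 kb, yet they held 29.1% of the sequence in the set. The longest covered 4620 kb near the start of chromosome 7 (3235000 to 7855002), at a density of -3.75. It was followed by 3530 kb (66215000 to 69745002) and 3400 kb (30565000 to 33965002) on chromosome 1, at -2.49 and -2.95. Of the 6 longest regions, 4 lay on chromosome 1. These 3 were also poor in H3K9me2, with -2.75, -2.46 and -2.65 log2 RPM per kb, against a median of -1.35 in the remaining bins.

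The bins lay on chromosomes 1 to 20, with none on X or Y. All 20 held such regions, but unevenly. Chromosome 2 had the most, 129 of its 873 bins (14.8%), followed in share by chromosome 6 (75 of 568, 13.2%), chromosome 13 (50 of 390, 12.8%) and chromosome 11 (39 of 308, 12.7%). The smallest shares were on chromosome 19 (11 of 233, 4.72%), chromosome 12 (13 of 195, 6.67%) and chromosome 18 (24 of 344, 6.98%). By length the order differed. Chromosome 1 led with 17.8% of its covered length, although only 9.48% of its bins belonged to the set, because its regions included several of the longest. Chromosome 2 followed with 16.4% and chromosome 7 with 15.0%, while chromosome 19 had 2.60% in regions of at most 380 kb. Chromosome 2 had a low density over all its bins (median -1.72), as did chromosome 11 (-1.73), against -1.26 on chromosome 10, where 7.29% of bins were in the set.

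**Figure D1:**
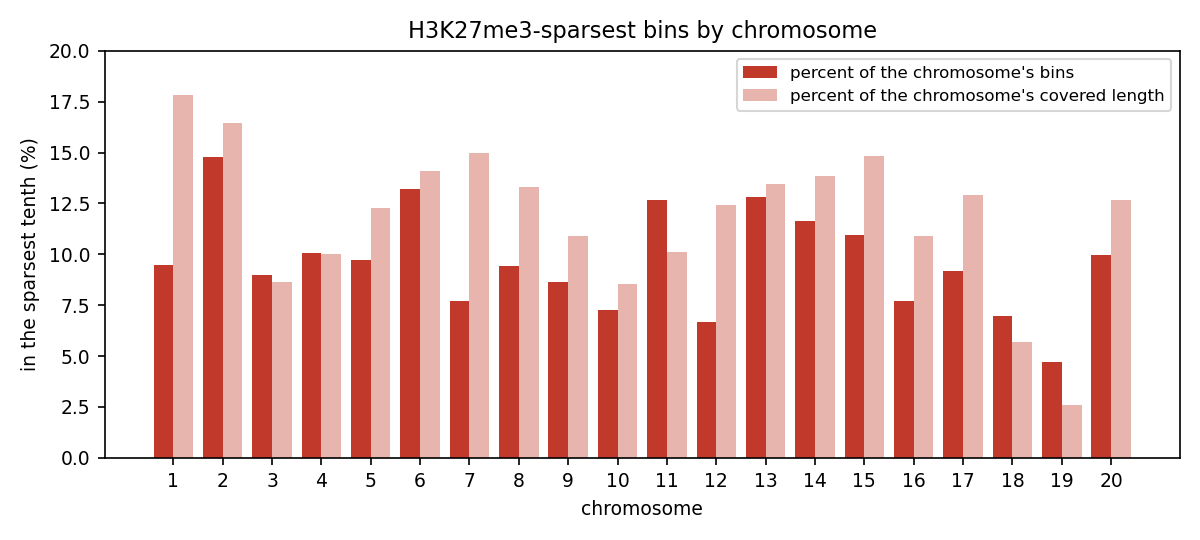
Share of each chromosome in the sparsest 10% of H3K27me3 bins, as percent of its bins (dark bars) and percent of its covered length (light bars). Chromosome 2 stands highest by bins (14.8%), chromosome 1 by length (17.8%), and chromosome 19 lowest by both (4.72% and 2.60%).

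Within chromosomes the sparse regions were scattered. Of 264 windows of 10 Mb, 245 held at least 1 of them, the median was 4 and the maximum 13. The richest window by length ran from 60 to 70 Mb on chromosome 1, where 4 regions made up 7.96 of 10.3 Mb (77.6%). The first 10 Mb of chromosome 7 came next, with 5.54 of 9.03 Mb (61.4%). These windows were picked after their values were seen. Most regions stood alone: 754 had no other member as the previous or next bin, and 217 (22.3%) formed 95 runs of 2 to 4 consecutive members. Some runs had uncovered sequence between their members. The share that random placement would give was not computed. The longest run joined 4 regions over 3120 kb of chromosome 2 (15605000 to 18725002). Their densities were -2.53, -2.50, -2.54 and -3.36. All 4 had identical H3K9me2 densities in every group (mean of sham and control -1.61), so they count as 1 H3K9me2 value. Regions were chosen for low density, so denser neighbours follow largely from the rule and are a description. Neighbours here are the previous and next bins along the chromosome, with or without uncovered sequence between. For the remaining bins, neighbour minus own density had a median of -0.091. The neighbours of a region were denser than the region by a median of 0.90 log2 RPM per kb. Their median density, -1.64, lay below that of the neighbours of the remaining bins, -1.50. Both flanks were above the median of all bins (-1.56) for 258 of the 960 regions with a bin on each side (26.9%), against 2780 of 8703 remaining bins (31.9%). Sequence that no bin covers lay directly beside 344 regions (35.4%), against 26.3% of the remaining bins. Without bins beside such a gap, 627 regions were left, with the same median length. The distance from a region to the nearer end of the covered chromosome had a median of 34.7 Mb, against 32.1 Mb for the remaining bins, and 88 regions (9.06%) against 7.28% lay within 5 Mb of an end.

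H3K9me2, which the choice did not use, was also lower over these regions. Each H3K9me2 bin was spread evenly over its length, and the mean over sham and control rats was taken for each region. The 971 regions drew mainly on 823 different H3K9me2 bins, so some share a value. Their median H3K9me2 density was -1.59 log2 RPM per kb, with quartiles at -1.75 and -1.47. The remaining bins had a median of -1.35, with quartiles at -1.51 and -1.21. The levels of both marks come from separate immunoprecipitations, each on its own scale, and are not compared with each other. By group, the median H3K9me2 density of the regions was -1.48 in banded and -1.46 in sham rats, and -1.71 in exercise and -1.74 in control rats. The remaining bins had -1.36, -1.34, -1.35 and -1.36 in the same order. Across all 9703 bins the Spearman correlation of both densities was 0.58, and within the 971 regions it was 0.30. Both marks were measured in the same groups, and neither density was divided by an input, so the correlation is a description only.

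**Figure D2:**
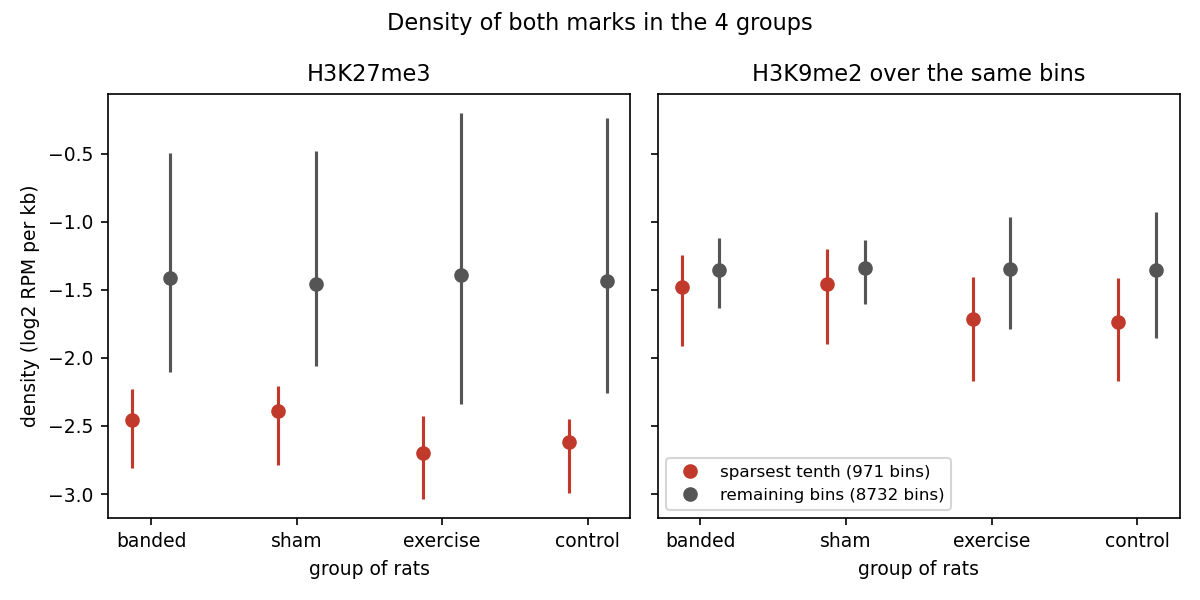
Density of H3K27me3 (left) and of H3K9me2 over the same bins (right) in banded, sham, exercise and control rats, in log2 RPM per kb. Points are medians over bins and lines run from the 10th to the 90th percentile of bins, for the sparsest 10% (red) and the remaining bins (grey). The H3K27me3 medians of the sparse regions lie between -2.70 in exercise and -2.39 in sham rats, and their H3K9me2 medians between -1.74 in control and -1.46 in sham rats.

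Some of the regions were poor in both marks. In 307 of them (31.6%), covering 143 Mb, H3K9me2 was also within its lowest 10% of bins (-1.70 or less). They had a median length of 250 kb, an H3K27me3 density of -2.57 and an H3K9me2 density of -1.85. The other 664, covering 174 Mb, had a median length of 170 kb, an H3K27me3 density of -2.47 and an H3K9me2 density of -1.51. Only 4 of the 971 lay in the densest 10% by H3K9me2. The regions most poor in H3K9me2 were 1930 kb on chromosome 15 (19095000 to 21025002), at -3.73, and 530 kb on chromosome 5 (133995000 to 134525002), at -3.22. The H3K27me3 density of the chromosome 15 region was -3.10. At the other extreme, 3 regions sat inside 1 long H3K9me2 bin on chromosome 16 (23645001 to 31075001, 7430 kb) with a density of -0.29. That domain spanned 20 H3K27me3 bins, and its 3 sparse ones had H3K27me3 densities between -2.74 and -2.36. The sparsest region by H3K27me3, on chromosome 4, was also low in H3K9me2 at -1.67, just above the limit of the lowest 10%.

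**Figure D3:**
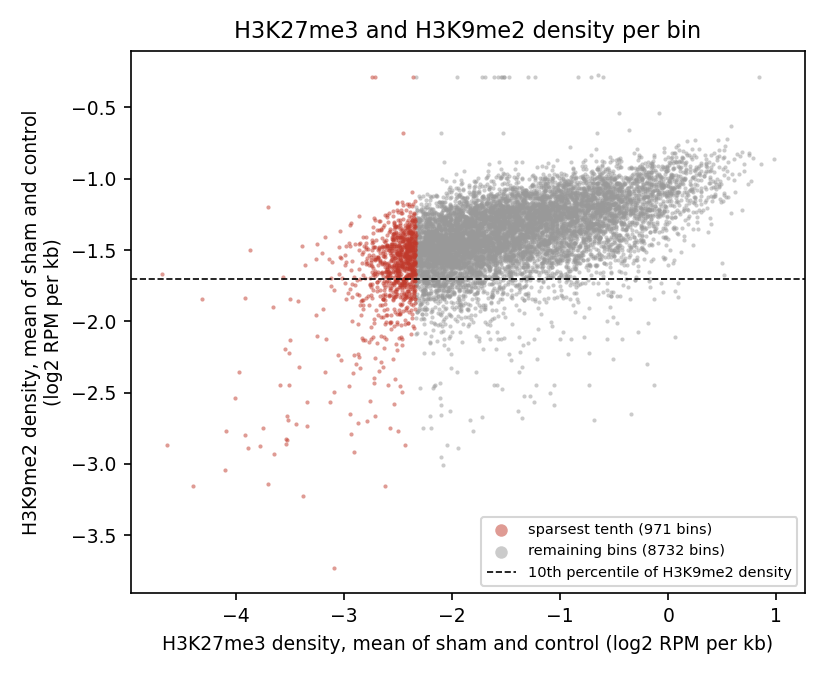
H3K27me3 density (x axis) against H3K9me2 density (y axis) of every H3K27me3 bin, both as the mean of sham and control in log2 RPM per kb. Red points are the 971 regions, grey points the remaining 8732 bins, and the dashed line marks the 10th percentile of H3K9me2 density (-1.70), below which 307 of the regions lie. The row of points near -0.29 holds bins inside 1 H3K9me2 bin of chromosome 16.

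Between banded and sham rats the sparse regions differed little. The H3K27me3 difference between banded and sham rats had a median of -0.060 log2 over the regions (SD over bins 0.148), against 0.011 over the remaining bins (SD 0.112), and 603 of 971 were lower in banded rats. Since a low sham value helped to choose a region, the same difference was also taken over the 971 bins that were sparsest by the control and exercise columns, which come from the other experiment. There the median was -0.097, and 705 bins (72.6%) were lower in banded rats, against a median of 0.014 over the remaining bins. Only 1 region (0.103%) passed a difference of 0.5, higher in banded rats. Over all bins, 4 of 9703 did (0.0412%, of which 0.0206% higher and 0.0206% lower). At 0.25 the count was 87 of 971 regions, against 383 of 9703 bins (3.95%), a larger share in the regions. The choice used the sham column, so nothing is read from these counts. H3K9me2 over the regions had a median difference of 0 between banded and sham rats, against 0.0049 over all bins, and 1 region passed 0.5 (background 0.0412%).

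Between exercise and control rats the difference was of similar size. The H3K27me3 difference between exercise and control rats had a median of -0.061 over the regions (SD over bins 0.120), against 0.015 over the remaining bins (SD 0.106), and 679 of 971 were lower in exercise rats. In the 971 bins that were sparsest by the banded and sham columns, which the training comparison does not use, the median was -0.060, and 676 bins (69.6%) were lower in exercise rats. A difference of 0.5 was passed by 4 regions (0.412%), 3 higher and 1 lower in exercise rats. Over all bins, 12 of 9703 passed it (0.124%, of which 0.0824% higher and 0.0412% lower). At 0.25 the count was 27 of 971 regions, against 261 of 9703 bins (2.69%), and the choice used the control column. H3K9me2 over the regions was higher in exercise than control rats by a median of 0.021, against 0.0048 over all bins, and 2 regions passed 0.5, both lower in exercise rats (background 0.0206%). Banded against sham and exercise against control share no column. In 508 regions (52.3%) H3K27me3 was lower in both comparisons, against 29.9% of all bins, and in 195 (20.1%) it was higher in both, against 37.8%. The next 10% of bins by density were much alike, with medians of -0.055 for banded minus sham and -0.075 for exercise minus control, and 56.5% of them lower in both. Over the regions the Spearman correlation of both differences was 0.54, and over all bins 0.49. The values share the bins and the authors' normalisation, so the correlation describes these columns only.

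The larger separation was between the experiments. H3K27me3 over the regions was higher in sham than control rats by a median of 0.22 log2 (SD over bins 0.215), and 861 of 971 regions were higher in sham rats. The remaining bins had a median of -0.038 (SD 0.239). The choice used both columns. In the 971 bins that were sparsest by the banded and exercise columns instead, the median was 0.26 and 883 (90.9%) were higher in sham rats. H3K9me2 over the regions was higher as well, by a median of 0.24, in 814 of 971 (83.8%), against a median of -0.015 and 44.7% over the remaining bins. The second 10% of bins by H3K27me3 density had an H3K9me2 median of 0.26, with 82.2% higher in sham rats. Start weight, surgery and experiment differ together between sham and control rats and cannot be told apart. The difference ran as a slope over all bins, and the second 10% of bins by density had nearly the same median, 0.23 for H3K27me3. Halfway up the densities the median was -0.0068, and in the densest 10% it was -0.26. Sparse bins were less sparse, and dense bins less dense, in sham than in control rats. A difference of 0.5 was passed by 52 regions (5.36%), 51 higher and 1 lower in sham rats. Over all bins, 305 of 9703 passed it (3.14%, of which 1.81% higher and 1.33% lower). At 0.25 the count was 436 of 971 regions, against 3159 of 9703 bins (32.6%). For H3K9me2, 195 regions (20.1%) passed 0.5, 193 higher and 2 lower in sham rats, against 16.4% of all bins (11.1% higher and 5.26% lower). The second 10% of bins by density had larger shares past 0.5, 5.88% for H3K27me3 and 25.9% for H3K9me2. All 52 regions past 0.5 in H3K27me3 had an H3K9me2 difference of the same sign, against 226 of the 253 remaining bins past 0.5 (89.3%). In 30 of the 52 (57.7%) the H3K9me2 difference passed 0.5 too, against 118 of 253 (46.6%). The 52 were long, with a median of 550 kb, against 140 kb for the 253. Nearly all of the 52 were higher in sham rats, whereas the 253 were 125 higher and 128 lower. Of those 128 lower bins, 116 were under 100 kb. The comparisons of the 52 with the 253 do not separate the directions, so nothing particular to the regions is read from them.

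**Figure D4:**
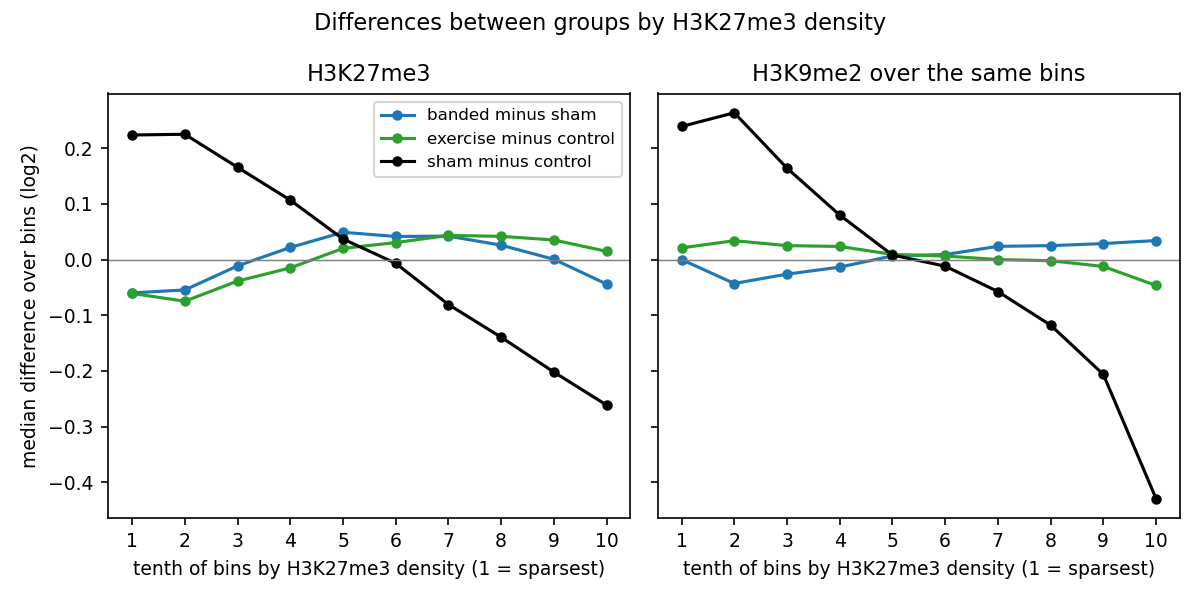
Median log2 difference between groups over bins ordered by H3K27me3 density in 10 equal classes, from the sparsest (1) to the densest (10), for H3K27me3 (left) and H3K9me2 over the same bins (right). Each point covers 970 or 971 bins. Sham minus control (black) runs from 0.22 in the sparsest to -0.26 in the densest class for H3K27me3 and from 0.24 to -0.43 for H3K9me2, while banded minus sham (blue) and exercise minus control (green) stay within 0.1 of 0.

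Length went with the size of the sham difference. Among regions under 100 kb (176 bins) the median of sham minus control was 0.13, from 100 to 300 kb (480 bins) it was 0.22, from 300 to 1000 kb (259 bins) 0.34, and at 1000 kb or more (56 bins) 0.28. The remaining bins of the same lengths had -0.16, -0.041, 0.051 and 0.17, so the regions stood higher in each length class. The authors' values are totals per bin brought to 1 distribution, so length enters the scale itself, and its part in the difference was not tested. For banding, the longest class went the other way: the regions of 1000 kb or more were higher in banded than sham rats by a median of 0.088 (83.9% of them higher), as were the remaining bins of that length (0.041, 78.2%).

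The regions with the largest differences were few. The 5 that passed 0.5 between banded and sham or between exercise and control rats all lay among those poor in both marks and beside sequence that no bin covers. On chromosome 5 (133995000 to 134525002), the log2 RPM of H3K27me3 was 6.95 in banded and 6.62 in sham rats, and 3.43 in exercise and 4.72 in control rats. Both surgery groups were high and both groups of the exercise experiment low, with a span of 3.52, the widest of all bins. H3K9me2 gave the same order of groups there, with densities of -1.95 in banded, -2.72 in sham, -5.36 in exercise and -3.73 in control rats. A 130 kb region of chromosome 4 (101395000 to 101525002) had an H3K27me3 log2 RPM of 4.82 in banded, 4.52 in sham, 3.25 in exercise and 2.51 in control rats. Its H3K9me2 density was -1.74 in banded, -1.93 in sham, -3.52 in exercise and -2.95 in control rats, so exercise stood above control for H3K27me3 and below it for H3K9me2. A 150 kb region of chromosome 6 (142965000 to 143115002) had an H3K27me3 log2 RPM of 4.91 in banded, 4.60 in sham, 3.34 in exercise and 2.80 in control rats. Its H3K9me2 density was -1.82, -2.15, -3.51 and -3.51 in the same order. A 70 kb region of chromosome 7 (15625000 to 15695002) had an H3K27me3 log2 RPM of 3.86 in banded, 3.49 in sham, 3.11 in exercise and 2.59 in control rats. Its H3K9me2 density was -1.41, -1.74, -1.77 and -1.83 in the same order. H3K27me3 in exercise and control rats was low in the chromosome 4, 6 and 7 regions, below the 10th percentile of RPM (18.4 RPM). The chromosome 5 value in exercise rats was below it too. With 18.4 RPM added as a pseudocount, 1 region and not 4 passed 0.5 between exercise and control rats. These differences therefore rest partly on low signal. The fifth region, on chromosome 8, is given below. In all 5 regions both marks were higher in both surgery groups than in both groups of the exercise experiment. That direction was common in the whole set. Sham rats were above control rats in 88.7% of all regions for H3K27me3 and in 83.8% for H3K9me2. In the remaining bins the shares were 44.0% and 44.7%. The 5 were picked for large H3K27me3 differences, so nothing particular to them is read from this order.

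The reverse was seen on chromosome 4 (98445000 to 98985002), where the H3K27me3 log2 RPM was 5.24 in banded and 5.08 in sham rats, and 6.17 in exercise and 6.19 in control rats. Sham minus control was -1.10 there for H3K27me3 and -0.96 for H3K9me2. It was the only region of the set more than 0.5 lower in sham than control rats. The next, on chromosome 6 (101725000 to 101915002), had 4.73 in banded, 4.69 in sham, 5.27 in exercise and 5.18 in control rats, and its H3K9me2 difference had the other sign (0.37). Between banded and sham rats the largest difference lay on chromosome 8 (36235000 to 36525002), with 6.34 in banded, 5.64 in sham, 5.23 in exercise and 5.22 in control rats. H3K9me2 did not follow it, at a difference of 0.024. On chromosome 7 (25000 to 125002), banded rats had 4.07 and sham rats 3.61, with 4.00 in exercise and 3.95 in control rats. The lowest banded values relative to sham were on chromosome 1 (44915000 to 45025002), with 4.08 in banded, 4.54 in sham, 3.95 in exercise and 4.17 in control rats, and on chromosome 2 (170455000 to 170695002), with 5.27, 5.70, 5.10 and 5.29. In both, sham was the highest of the 4 groups. On chromosome 9 (855000 to 1515002), exercise rats had 6.50 and control rats 6.90, with 7.14 in banded and 7.03 in sham rats, and H3K9me2 differed in the same direction by -0.31 between exercise and control rats. Leaving out the 6 regions in which sham and control differed by more than 1 kept the median of sham minus control at 0.22.

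**Figure D5:**
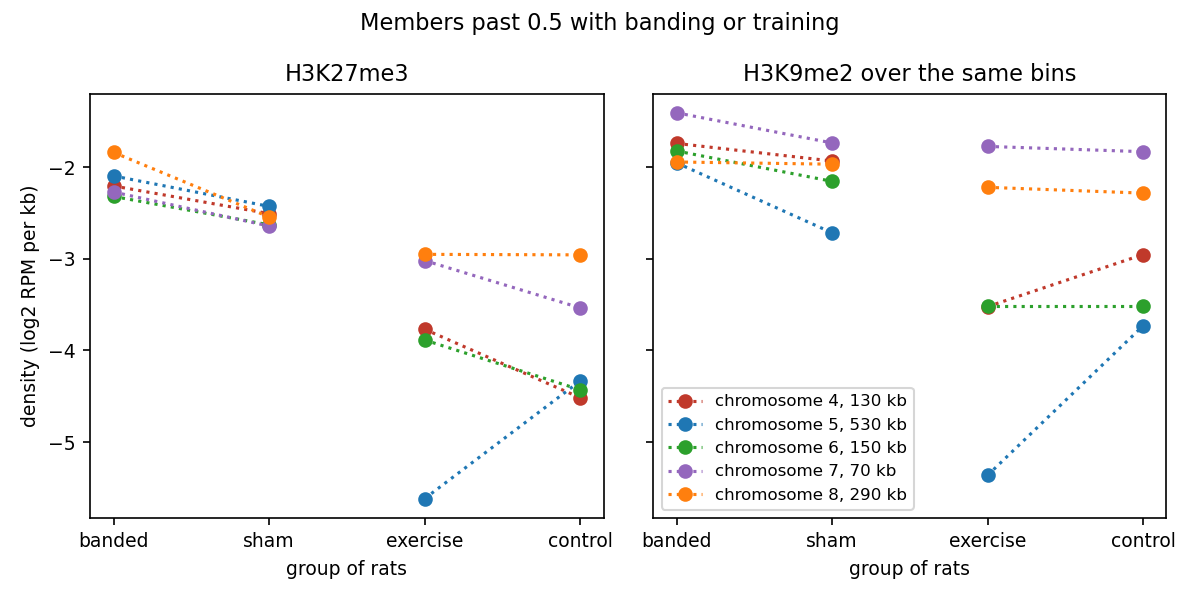
H3K27me3 density (left) and H3K9me2 density (right), in log2 RPM per kb, of the 5 regions whose H3K27me3 differed by more than 0.5 between banded and sham or between exercise and control rats. Dotted lines join the groups of 1 experiment. The chromosome 5 region is lowest in exercise rats for both marks (-5.62 and -5.36), and the chromosome 8 region is highest in banded rats for H3K27me3 (-1.84) with nearly equal H3K9me2 in banded and sham rats (-1.94 and -1.97).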

How the data were processed

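The authors deposited log2 RPM values per bin, with 1 column per group for each mark, per the file headers. File names credit the bins to circular binary segmentation. How samples were combined and which of them set the bin borders is not stated, and the build was not given in the sources used here. Coordinates stand as deposited. Bowtie, SAMtools, edgeR and R 2.15.1 appear, without roles, in the submitters' processing notes. Densities, members and differences of columns were computed in Python 3.11.15 with numpy 2.4.6 and pandas 2.3.3 and drawn with matplotlib 3.10.9. H3K9me2 was averaged over each region by overlap on the linear RPM scale. The script was tested on simulated data. A difference of 0.5 log2 was the threshold, and bins were not treated as replicates. The members, lists and comparisons were chosen with earlier results of these data known. Named regions are those of lowest density, greatest length, largest differences, extreme H3K9me2, nearest the threshold, and in the longest run. The 10 Mb windows, the chromosome 7 bin of 70 kb in the plot of regions past 0.5 and the chromosome 14 bin were chosen after their values were seen, as were 2 alternatives: leaving out bins beside a gap, and bins in which sham and control differ by over 1.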

Additional observations from a re-analysis of the deposited data

Results flagged for a closer look

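On chromosome 5 (133995000 to 134525002), banding and training went with opposite H3K27me3 differences, 0.33 for banded minus sham and -1.28 for exercise minus control, a distance of 1.62 log2. H3K9me2 over the same bin differed by 0.76 and -1.63. Sham minus control was 1.90 for H3K27me3 and 1.01 for H3K9me2 in this bin, which lay beside sequence that no bin covers. H3K27me3 in exercise rats was low there, at 3.43 log2 RPM, which is below the 18.4 RPM used as a pseudocount. The difference of -1.28 therefore rests partly on low signal. The distance between the 2 differences was not tested, since each group has 1 value.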

How the results depend on the processing

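No paired analysis was possible because the deposited tables hold 1 column per group. Over 11 alternatives, median H3K27me3 differences kept their sign: -0.12 to -0.017 for banded minus sham, -0.10 to -0.034 for exercise minus control, 0.13 to 0.27 for sham minus control. Of 151 alternative values, 42 moved (by over 0.1 log2 or in sign, by 1.1 times for lengths, by 1.5 times for counts), and the cause was not tested. At the 5th percentile there were 486 regions (median 230 kb, 7.35% of length, densities -2.59 banded, -2.54 sham, -2.82 exercise, -2.76 control), and 27 passed 0.5 in sham minus control. At the 20th percentile there were 1941 (24.2%, densities -2.30, -2.24, -2.55 and -2.46 in the same order), and 109 passed. The control column alone chose regions of 230 kb (14.2% of length), of which 2 passed in banded minus sham and 93 in sham minus control. The sham column alone chose regions of 160 kb (11.1%), of which 26 passed in sham minus control. The exercise and banded columns gave 0 in banded minus sham and 81 in sham minus control. Without the lowest 10% of bins by log2 RPM, the median was 240 kb (14.1%), and 1 passed in exercise minus control. With a pseudocount of 18.4 RPM, 1 passed in exercise minus control and 20 in sham minus control. At a threshold of 0.25, 87 passed in banded minus sham, 27 in exercise minus control and 436 in sham minus control, and at 1 the counts were 0, 1 and 6. Without the 6 regions past 1 between sham and control, 1 passed in exercise minus control. Without bins beside a gap, 627 regions (11.2%) were left, 0, 0 and 30 passed, and the H3K9me2 median of banded minus sham was -0.024. Depth is unknown, so its limit cannot be given.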
